A study of Mus musculus with 20 samples.

Results

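Complex I, or NADH:ubiquinone oxidoreductase, is the entry enzyme of the mitochondrial respiratory chain, and the genes of its nuclear-encoded subunits were followed here in the livers of obese mice. The members were taken by symbol: every gene of the array whose symbol begins with Ndufa, Ndufb, Ndufc, Ndufs or Ndufv followed by a number, with the assembly factors (Ndufaf genes) left out. This gave 37 of the 19505 genes with a probe set. Of these, 36 were among the 11844 genes above a low-signal filter and were tested, and the other member, Ndufa4l2, was too dim. Ndufb1 and the subunits encoded by mitochondrial DNA were not analysed here. Membership rests on gene symbols, and neither protein nor enzyme activity was measured.

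RNA of the liver was measured on 20 arrays, 1 per mouse, in 4 groups of 5 male ob/ob mice. All mice carried the ob/ob genotype, so every group lacked leptin and no lean mice were among them. The filtered-air group is the control. The metformin group received metformin in the drinking water at a dose set by body weight, and its label names no air. The PM2.5 group spent 6 hours of each day in a chamber with fine airborne particles, and the last group, called combined here, had both PM2.5 and metformin. Exposure lasted 2 weeks. Chamber hours are given for the PM2.5 groups alone, so the particles cannot be told apart from the stay in a chamber. The mice are numbered in the order of deposit, and the numbers pair no mice.

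Complex I oxidises NADH, passes the electrons through a flavin and a chain of iron-sulfur clusters to ubiquinone, and uses the energy to pump protons out of the mitochondrial matrix. It has the shape of an L, with one arm reaching into the matrix and the other lying in the inner membrane. A small set of core subunits carries the chemistry, and the many accessory subunits stabilise, assemble and tune the enzyme. Liver mitochondria depend on it to burn fatty acids and to drive glucose production, and metformin at high concentrations is a known inhibitor of it.

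Signal was deposited by the authors on a log2 scale, so a difference of 1 on this scale is a doubling, and differences below are in log2 units. Every member had 1 probe set. Rose and fell are written of genes that passed, at a limma p under 0.05 after Benjamini-Hochberg adjustment across all 11844 genes, and errors after ± are standard errors of a difference unless SD is named. Nothing says that the mice of a group came from separate cages or litters, so p-values measure the spread between these mice. Hepatocyte markers were bright on all arrays, with a summed log2 level between 21.26 and 21.42. Of these 10 markers 2 rose in the combined group against filtered air, beside 18.7% of all genes. The arrays of the combined group correlated with each other at 0.972 to 0.993, against 0.989 to 0.994 in filtered air, and its mice 2 and 4 stood apart by bright negative controls. The 5222 negative-control probe sets had a median between 4.44 and 4.79 on the combined arrays, between 4.36 and 4.43 on the filtered-air arrays, between 4.45 and 4.54 on the metformin arrays and between 4.34 and 4.52 on the PM2.5 arrays. The low-signal filter, at log2 4.05, lay below these medians, so all genes tested include some no brighter than negative controls. Of the 36 tested members 32 lay above 8.36, the negative controls' 95th percentile averaged over arrays. Shares over all genes thus cover dimmer genes than most members. Kupffer cell and macrophage markers spanned a wide range in the combined group, with a summed log2 level between 11.60 and 15.11 against 14.02 to 14.98 in filtered air. In that comparison 6 of 11 fell, beside 16.2% of all genes. Of the endothelial markers 3 of 10 fell in the combined group against filtered air, beside the same 16.2%. Their summed log2 level was 13.26 to 14.83 against 14.67 to 15.11. In a piece of liver, fewer cells of a type and less RNA per cell cannot be told apart.

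In every mouse with metformin, and in 4 of 5 mice with PM2.5 alone, complex I genes as a group lay below their filtered-air mean. The median difference of the 36 tested members from their filtered-air means was 0.07, 0.05, 0.05, -0.23 and 0.03 in filtered-air mice 1 to 5. It was -0.20, -0.33, -0.38, -0.42 and -0.25 in the metformin mice. In the PM2.5 mice it was 0.04, -0.40, -0.29, -0.31 and -0.45, and in the combined mice it was -0.39, -0.29, -0.31, -0.34 and -0.41. The combined mice lay close together, while PM2.5 mouse 1 lay among the controls. That mouse had the highest signal of its group for 24 of 36 members, and filtered-air mouse 4 had the lowest of its group for 27 of 36. The same median over all 11844 genes stayed between -0.03 and 0.07 in every mouse. Within a group, a member's SD had a median of 0.27 with PM2.5, 0.17 with metformin and 0.19 in each of the other groups.

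**Figure D1:**
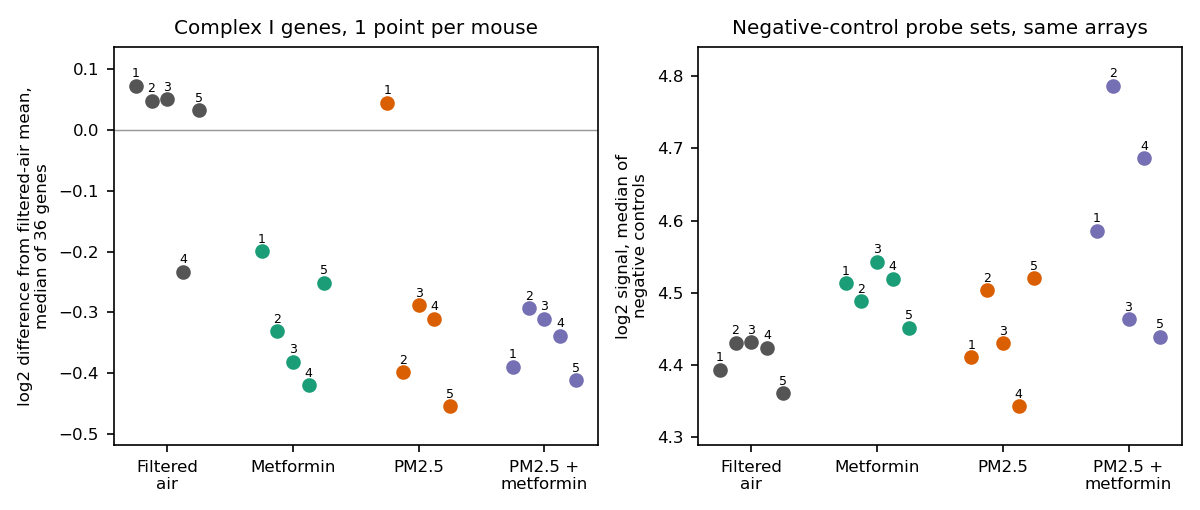
Left, the median log2 difference of 36 complex I genes from their filtered-air means, 1 point per mouse with its number, over the 4 groups. Right, the median log2 signal of the negative-control probe sets on the same arrays. PM2.5 mouse 1 lies at 0.04 and filtered-air mouse 4 at -0.23, each apart from its group, and combined mice 2 and 4 have the brightest negative controls.

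Over the whole list, fitted differences from filtered air were mostly below 0 in each of the treated groups. They were below 0 for 30 of 36 members with PM2.5 (47.5% of all genes tested), for 34 of 36 with metformin (49.7%) and for 28 of 36 in the combined group (48.9%). The median difference was -0.32 with PM2.5, -0.31 with metformin and -0.34 in the combined group, beside 0.02, 0.00 and 0.01 over all genes. These comparisons share the filtered-air mice. An F test for any difference among the 4 groups passed for 18 of 36 members, beside 32.1% of all genes. Without filtered-air mouse 1, 2 or 3 in turn it passed for 11, 10 and 11 members, and without combined mice 2 and 4 for 8. The share of all genes passing the F test was not computed for these fits.

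**Figure D2:**
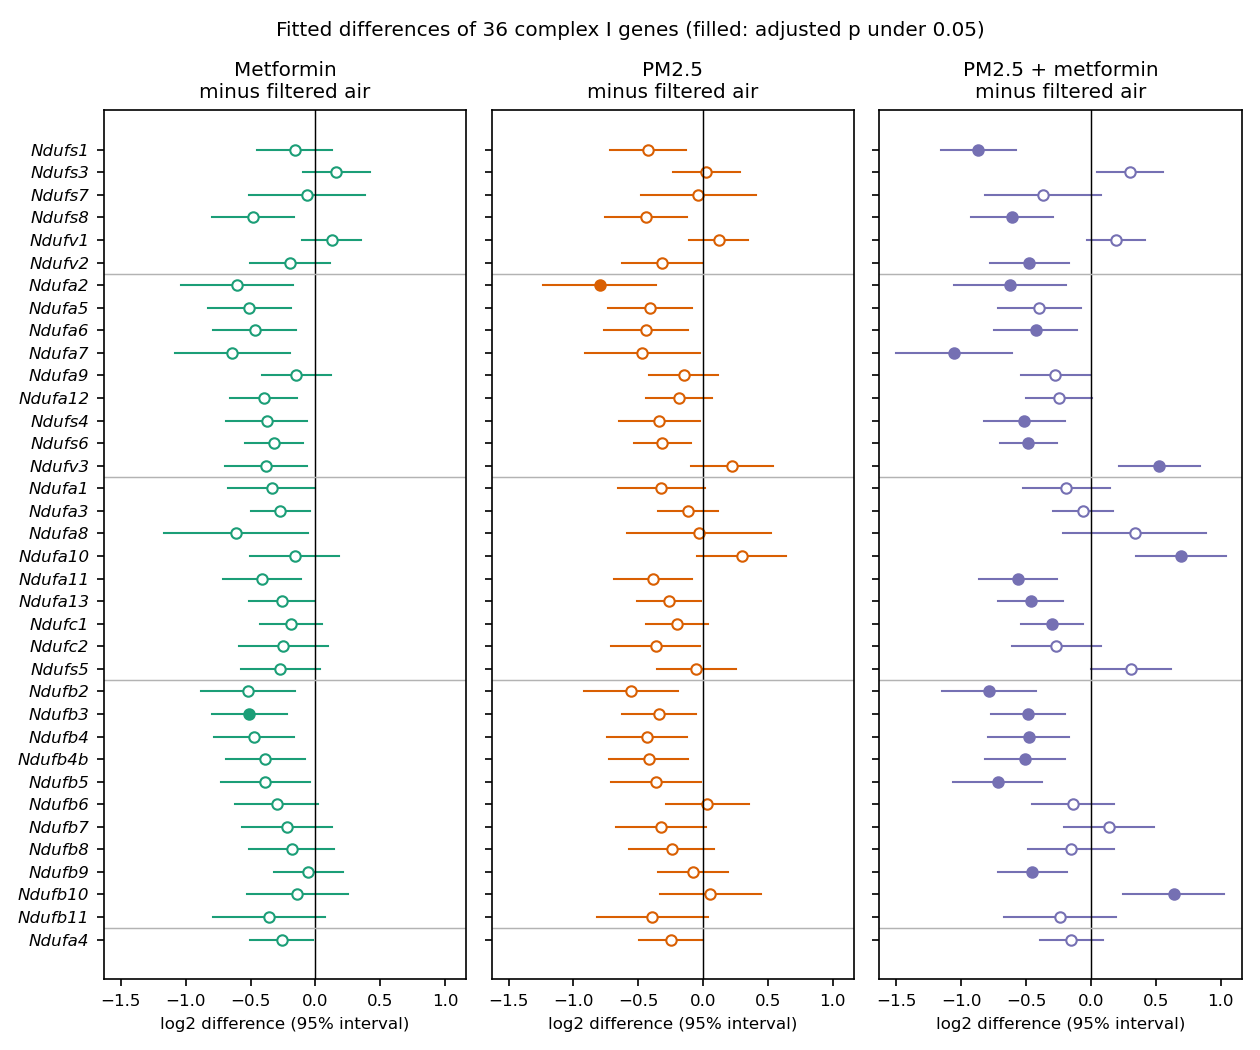
Fitted log2 differences (points) with 95% intervals (lines) of 36 complex I genes in the metformin, PM2.5 and combined groups against filtered air. Grey lines separate, from the top, nuclear core subunits, matrix arm accessory subunits, proximal and distal membrane arm accessory subunits, and Ndufa4. Filled points passed at an adjusted p under 0.05: 1 with metformin, 1 with PM2.5 and 20 in the combined group. The p is adjusted within each comparison, so these counts do not measure the size of the differences.

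The combined group against filtered air asks what particles and drug do together. It had the most calls, while its median over members, -0.34, was close to -0.32 with PM2.5 and -0.31 with metformin. Because p is adjusted within each comparison, a difference of like size can pass in one and not in another. Ndufa6 had -0.44 ± 0.16 with PM2.5 (limma adjusted p = 0.0966) and -0.43 ± 0.16 in the combined group (adjusted p = 0.0369). In it 17 of 36 members fell and 3 rose (Ndufa10, Ndufv3 and Ndufb10), while 16 did not pass. Over all genes 34.9% passed, 16.2% lower and 18.7% higher, against 47.2% and 8.33% of the members. An unadjusted p was under 0.05 for 24 of 36 members (66.7%), beside 44% of all genes. All 5 combined mice lay below all 5 filtered-air mice for 14 members, or 38.9%, beside 9.03% of all genes. They lay above for Ndufa10 and Ndufv3, beside 11.8% of all genes. The negative controls were brighter on all 5 combined arrays than on any filtered-air array. With their median as a covariate 3 members passed (Ndufs1 and Ndufs6 lower, Ndufv3 higher), beside 8.9% of all genes, and the median over members was -0.27. Without combined mice 2 and 4, 12 members fell and 2 rose, beside 21.5% of all genes. With a 60th-percentile filter, which leaves out more dim genes, 18 members fell and 4 rose, beside 47.1% of all genes passing. Combined mouse 5 had the lowest negative-control median of its group, 4.44, and the highest macrophage marker level, 15.11, and its median over the 36 members was -0.41. This is 1 mouse, from which the part of the negative-control signal or of the macrophage markers cannot be read. Its 4.44 still lay above the filtered-air arrays, which reached 4.43. The part of the macrophage markers in the calls was not tested.

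The promoters of 4 members are shown for the direction of those genes in the combined group: Ndufs6 and Ndufb2 are among the members that fell, Ndufa10 and Ndufv3 among those that rose. Each is the 250 bases before the gene's start in RefSeq on GRCm38.p6, read 5′ to 3′ on the gene's strand. Ndufs6 lies at chr13:73328483-73328732 on the minus strand, Ndufb2 at chr6:39592315-39592564 on the plus strand, Ndufa10 at chr1:92473759-92474008 on the minus strand and Ndufv3 at chr17:31519865-31520114 on the plus strand. Capitals mark matches, on either strand, to the letters searched: GCGCA, any 1 base and GCGC for NRF1, CCAAT for the CCAAT box and GGGCGG for SP1.
Ndufs6: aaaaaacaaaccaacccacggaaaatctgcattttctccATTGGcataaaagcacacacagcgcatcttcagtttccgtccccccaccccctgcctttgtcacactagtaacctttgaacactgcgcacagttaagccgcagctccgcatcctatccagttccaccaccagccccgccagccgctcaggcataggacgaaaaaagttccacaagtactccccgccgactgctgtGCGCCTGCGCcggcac
Ndufb2: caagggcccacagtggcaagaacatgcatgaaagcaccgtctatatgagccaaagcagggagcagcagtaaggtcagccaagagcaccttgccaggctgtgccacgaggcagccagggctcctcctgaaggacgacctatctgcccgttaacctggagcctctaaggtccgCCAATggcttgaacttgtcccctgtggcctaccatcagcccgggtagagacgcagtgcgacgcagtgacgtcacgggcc
Ndufa10: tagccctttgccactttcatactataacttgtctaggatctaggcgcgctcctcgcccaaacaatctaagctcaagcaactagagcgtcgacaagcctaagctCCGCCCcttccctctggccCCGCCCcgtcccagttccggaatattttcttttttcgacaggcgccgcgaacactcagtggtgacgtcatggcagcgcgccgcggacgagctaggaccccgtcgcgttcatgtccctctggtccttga
Ndufv3: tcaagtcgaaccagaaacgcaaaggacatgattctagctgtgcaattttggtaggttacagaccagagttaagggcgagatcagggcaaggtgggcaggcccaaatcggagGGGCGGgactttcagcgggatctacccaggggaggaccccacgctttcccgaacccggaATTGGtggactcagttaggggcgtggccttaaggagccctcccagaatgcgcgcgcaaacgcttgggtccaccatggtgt
The Ndufs6 stretch holds a CCAAT match (read as ATTGG on this strand) and, just before the start, an NRF1 match. Ndufb2 holds a CCAAT match, Ndufa10 holds a pair of SP1 matches (read as CCGCCC), and Ndufv3 holds an SP1 and a CCAAT match. RefSeq windows of 300 bases, reaching 50 past the start, were found for 33 of the 36 tested members, 35 windows in all. Ndufs1, Ndufa2 and Ndufb9 had no entry. The NRF1 letters were in 8 of 35 member windows (22.9%) and in 4.6% of all 32851 windows. The YY1 letters (AAGATGG followed directly by CGGC) were in 4 member windows (11.4%) against 0.633% of all, CCGGAAG for GABP in 4 against 8.86%, and GGGCGG in 15 (42.9%) against 35.7%. CCAAT was in 10 member windows (28.6%) against 37.4% of all, and TATAAA in 5 (14.3%) against 13.6%. Each motif was counted on its own, whether or not its matches overlapped those of another. By direction in the combined group, CCAAT was in 7 of 15 windows of members that fell, 1 of 3 of those that rose and 2 of 17 of the others. In the same order, the NRF1 letters were in 4, 0 and 4 windows, YY1 in 2, 0 and 2 and GABP in 1, 0 and 3. SP1 was in 4, 2 and 9, and TATAAA in 2, 0 and 3. None of these splits was tested. These counts describe letters in windows, and member windows were also richer in GC than all windows, with a median of 59% against 52.7%.

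Of the 6 nuclear core subunits, which hold the flavin and the iron-sulfur clusters, 3 fell in the combined group against filtered air, and their median difference was -0.42. Ndufs1, the largest subunit of the enzyme and a carrier of iron-sulfur clusters, was at 14.15, 14.03, 14.07, 13.90 and 14.10 in filtered air. It was at 13.86, 13.99, 13.80, 13.86 and 13.94 with metformin, at 14.04, 13.45, 13.76, 13.47 and 13.40 with PM2.5, and at 13.50, 12.95, 13.28, 12.87 and 13.31 in the combined group. All combined mice lay below all filtered-air and all metformin mice, while PM2.5 mouse 1 lay among the controls. Ndufs1 fell in the combined group by 0.87 ± 0.14, 1.83-fold, against filtered air (limma adjusted p = 0.000122) and by 0.71 ± 0.14 against metformin (adjusted p = 0.00259). Both calls held under each alternative tried.

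Ndufs8, which carries iron-sulfur clusters near the ubiquinone site, was at 14.91, 14.84, 14.70, 14.28 and 14.78 in filtered air, at 14.10, 14.21, 14.14, 14.10 and 14.54 with metformin, at 14.63, 14.03, 14.37, 14.38 and 13.90 with PM2.5 and at 14.19, 13.86, 14.28, 14.02 and 14.11 in the combined group. It fell in the combined group by 0.61 ± 0.15 (limma adjusted p = 0.00382). The highest combined mouse stood just under the lowest filtered-air mouse. Ndufv2, the iron-sulfur partner of the flavin subunit, was at 14.81, 14.92, 14.67, 14.43 and 14.55 in filtered air, at 14.53, 14.50, 14.56, 14.35 and 14.46 with metformin, at 14.92, 14.34, 14.28, 14.12 and 14.13 with PM2.5 and at 14.21, 14.39, 14.27, 13.89 and 14.24 in the combined group. PM2.5 mouse 1 stood well above the other PM2.5 mice, and all combined mice stood below all controls. Ndufv2 fell in the combined group by 0.47 ± 0.15 (adjusted p = 0.0163). That call was lost without filtered-air mouse 2 or combined mouse 4. Ndufv1, which binds NADH and the flavin, had a difference of 0.19 ± 0.11 and did not pass. Ndufs3, a core subunit without a cofactor, had 0.30 ± 0.12 (adjusted p = 0.0636), and Ndufs7, which holds the last cluster before ubiquinone, had -0.37 ± 0.21 with the widest spread in the combined group (SD 0.61, n = 5).

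Of the 9 accessory subunits of the matrix arm, 5 fell and 1 rose in the combined group against filtered air, with a median of -0.43. Ndufa7, a small subunit of this arm, was at 8.95, 8.86, 8.97, 8.11 and 9.17 in filtered air, at 8.02, 8.42, 7.92, 7.96 and 8.52 with metformin, at 8.76, 8.27, 8.19, 8.41 and 8.08 with PM2.5 and at 7.82, 7.35, 8.02, 7.25 and 8.32 in the combined group. It fell by 1.06 ± 0.21, 2.08-fold (limma adjusted p = 0.000801), with 4 of 5 combined mice below all controls. Its mean of 8.27 lay under 8.36, the 95th percentile of the negative controls averaged over arrays, and with their median as a covariate the difference was -0.50 (adjusted p = 0.145).

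Ndufs6, a zinc-binding subunit needed late in assembly of the matrix arm, was at 13.56, 13.72, 13.72, 13.62 and 13.75 in filtered air. It was at 13.30, 13.31, 13.47, 13.29 and 13.41 with metformin, at 13.60, 13.45, 13.26, 13.37 and 13.13 with PM2.5 and at 13.19, 13.25, 13.08, 13.23 and 13.23 in the combined group. The groups without PM2.5 did not overlap, and the combined mice were the most alike. Ndufs6 fell by 0.48 ± 0.11 in the combined group against filtered air (limma adjusted p = 0.00166), a call that held under each alternative tried. With metformin alone its difference was -0.32 ± 0.11 (adjusted p = 0.105).

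Ndufs4, whose loss causes a mitochondrial disease, was at 13.01, 12.49, 12.57, 12.27 and 12.74 in filtered air, at 12.37, 12.25, 12.24, 12.05 and 12.29 with metformin, at 12.60, 12.06, 12.59, 12.28 and 11.86 with PM2.5 and at 12.02, 12.16, 12.19, 12.06 and 12.09 in the combined group. The combined mice were close together and below all controls, and the gene fell by 0.51 ± 0.15 in the combined group (limma adjusted p = 0.0114). Ndufa6, of the LYR protein family, was at 14.03, 14.05, 13.998, 13.59 and 14.15 in filtered air, at 13.52, 13.45, 13.54, 13.17 and 13.79 with metformin, at 14.04, 13.30, 13.61, 13.54 and 13.13 with PM2.5 and at 13.49, 13.52, 13.54, 13.63 and 13.50 in the combined group. Filtered-air mouse 4 overlapped the treated mice. In the combined group Ndufa6 fell by 0.43 ± 0.16 (adjusted p = 0.0369), a call lost without filtered-air mouse 1, 2, 3 or 5 or combined mouse 1, 2, 3 or 5.

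Ndufa5, a small subunit of the matrix arm, was at 13.75, 13.87, 13.68, 13.19 and 13.53 in filtered air, at 13.38, 13.08, 12.89, 13.00 and 13.13 with metformin, at 13.64, 12.90, 13.45, 13.02 and 12.97 with PM2.5 and at 13.21, 13.28, 13.11, 13.32 and 13.11 in the combined group. Its filtered-air mouse 4 and PM2.5 mouse 1 each lay within the range of the other group. Its difference in the combined group was -0.40 ± 0.15 (limma adjusted p = 0.0504). Ndufa9, which binds a nicotinamide nucleotide, had -0.27 ± 0.13 and Ndufa12, which closes the arm late in assembly, had -0.25 ± 0.12, and these did not pass.

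Ndufa2, a subunit with a thioredoxin-like fold, was the member that passed with PM2.5 alone. It was at 12.38, 11.95, 12.05, 11.53 and 11.88 in filtered air, at 11.69, 10.89, 11.42, 11.26 and 10.53 with PM2.5, at 11.53, 11.50, 11.22, 10.91 and 11.60 with metformin and at 11.27, 11.30, 11.62, 11.62 and 10.85 in the combined group. Of the PM2.5 mice 4 of 5 lay below all controls. It fell by 0.80 ± 0.21, 1.74-fold, with PM2.5 (limma adjusted p = 0.0297) and by 0.63 ± 0.21 in the combined group (adjusted p = 0.0242). The PM2.5 call was lost without filtered-air mouse 1, 2 or 3 or PM2.5 mouse 2 or 5, with adjusted p up to 0.104, and the combined call without filtered-air mouse 1 or combined mouse 5.

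Ndufv3, an accessory subunit beside the NADH-binding end, was the one member of its arm that rose in the combined group. It was at 6.14, 6.01, 6.29, 5.79 and 6.20 in filtered air, at 6.08, 5.73, 5.42, 5.43 and 5.86 with metformin, at 6.21, 6.33, 6.19, 6.68 and 6.14 with PM2.5 and at 6.37, 6.75, 6.73, 6.44 and 6.78 in the combined group. All combined mice lay above all filtered-air mice, and all PM2.5 mice above all metformin mice. Ndufv3 rose by 0.53 ± 0.15 in the combined group against filtered air (limma adjusted p = 0.01) and by 0.91 ± 0.15 against metformin (adjusted p = 0.000927). This probe set is dim, with a mean of 6.18 below the 95th percentile of the negative controls at 8.36. With their median as a covariate its differences were 0.69 and 0.99 (adjusted p = 0.0327 and 0.00165).

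**Figure D3:**
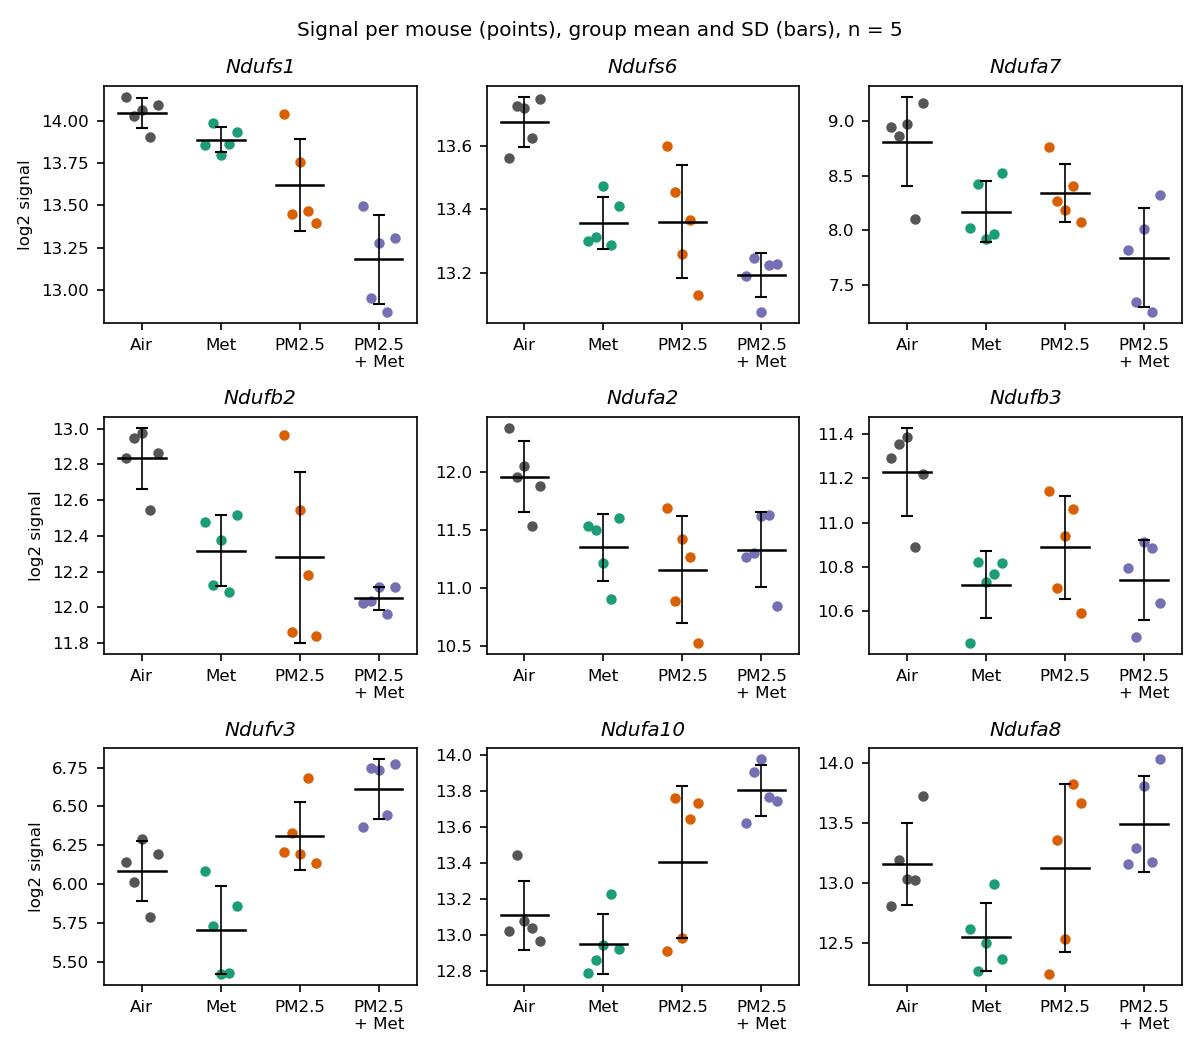
Log2 signal per mouse (points) with group mean and SD (bars, n = 5) for 9 complex I genes in filtered air (Air), metformin (Met), PM2.5 and both (PM2.5 + Met); each panel has its own axis range. Ndufs1, Ndufs6, Ndufa7 and Ndufb2 are lowest on average in the combined group, Ndufv3, Ndufa10 and Ndufa8 are highest there, and for Ndufa10 the PM2.5 mice fall at 12.91 to 12.98 or at 13.64 to 13.76.

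Of the 9 accessory subunits of the proximal membrane arm, next to the matrix arm, 3 fell and 1 rose in the combined group against filtered air, with a median of -0.19. Ndufa10, related to deoxyribonucleoside kinases and bound on the matrix face, was at 13.02, 13.44, 13.07, 13.04 and 12.97 in filtered air. It was at 12.79, 12.86, 12.94, 13.23 and 12.92 with metformin, at 12.91, 13.76, 12.98, 13.64 and 13.73 with PM2.5, and at 13.62, 13.91, 13.98, 13.77 and 13.74 in the combined group. PM2.5 mouse 3 lay among the controls and mouse 1 just below them, while mice 2, 4 and 5 lay among the combined mice. It rose in the combined group by 0.69 ± 0.17, 1.62-fold, against filtered air (limma adjusted p = 0.00277) and by 0.85 ± 0.17 against metformin (adjusted p = 0.00236). With PM2.5 alone the difference was 0.30 ± 0.17 and did not pass. With the negative-control covariate the difference from filtered air was 0.58 (adjusted p = 0.0897).

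Ndufa8, which sits on the intermembrane-space side and is held by disulfide bonds, had a like split with PM2.5. It was at 12.24, 13.36, 12.53, 13.83 and 13.66 there, at 12.81, 13.19, 13.03, 13.02 and 13.73 in filtered air, at 12.62, 12.27, 12.50, 12.99 and 12.37 with metformin, and at 13.15, 13.29, 13.81, 13.17 and 14.04 in the combined group. All combined mice lay above all metformin mice. Ndufa8 rose in the combined group against metformin by 0.95 ± 0.27 (limma adjusted p = 0.0196), while its difference from filtered air was 0.34 ± 0.27 and did not pass. Ndufs5, of the same side of the membrane, was at 11.20, 11.41, 11.17, 10.82 and 11.03 in filtered air, at 10.63, 10.87, 10.97, 10.96 and 10.86 with metformin, at 11.26, 11.31, 11.01, 10.82 and 10.97 with PM2.5 and at 11.24, 11.67, 11.32, 11.79 and 11.17 in the combined group. Combined mice 2 and 4 were the highest. It rose by 0.58 ± 0.15 against metformin (adjusted p = 0.0112), and against filtered air its difference of 0.31 ± 0.15 did not pass. The Ndufs5 call against metformin was lost without combined mice 2 and 4 (0.38, adjusted p = 0.142).

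Ndufa11, a membrane subunit related to the Tim17 family, was at 12.49, 12.54, 12.74, 12.38 and 12.85 in filtered air, at 12.47, 12.26, 11.95, 11.98 and 12.29 with metformin, at 12.37, 12.14, 12.21, 12.43 and 11.93 with PM2.5 and at 12.16, 11.73, 12.24, 11.87 and 12.21 in the combined group. It fell by 0.56 ± 0.15 in the combined group against filtered air (limma adjusted p = 0.005). Ndufa13, also known as Grim19, was at 14.62, 14.57, 14.56, 14.21 and 14.52 in filtered air, at 14.31, 14.17, 14.25, 14.19 and 14.26 with metformin, at 14.56, 14.05, 14.22, 14.23 and 14.13 with PM2.5 and at 14.11, 14.19, 14.06, 13.84 and 13.96 in the combined group. It fell in the combined group by 0.47 ± 0.12 (adjusted p = 0.00475). For both genes all combined mice lay below all controls.

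Ndufc1, a small membrane subunit, was at 15.04, 15.47, 15.08, 15.06 and 15.09 in filtered air, at 14.94, 14.83, 14.86, 15.14 and 15.01 with metformin, at 14.84, 14.98, 14.76, 15.03 and 15.12 with PM2.5 and at 14.75, 14.96, 14.83, 14.82 and 14.86 in the combined group. Filtered-air mouse 2 stood above all others. In the combined group it fell by 0.30 ± 0.12 (limma adjusted p = 0.0472), a call lost under 19 of the 30 alternatives, among them leaving out any filtered-air mouse except mouse 4 and any combined mouse except mouse 2. Ndufa1, Ndufa3 and Ndufc2 had differences of -0.19, -0.06 and -0.27 and did not pass. Ndufa3 is a small membrane subunit and had one of the tightest filtered-air groups (SD 0.056, n = 5).

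Of the 11 accessory subunits of the distal membrane arm, at the far end of the proton-pumping part, 6 fell and 1 rose in the combined group against filtered air, with a median of -0.45. Ndufb2, a small single-pass membrane subunit, was at 12.84, 12.95, 12.98, 12.55 and 12.86 in filtered air and at 12.48, 12.13, 12.38, 12.09 and 12.52 with metformin. It was at 12.97, 11.86, 12.55, 12.18 and 11.84 with PM2.5 and at 12.02, 12.03, 12.11, 11.96 and 12.11 in the combined group. The PM2.5 mice ranged from the controls down to below the combined mice. Ndufb2 fell by 0.78 ± 0.17, 1.72-fold, in the combined group (limma adjusted p = 0.00161), while with PM2.5 its difference was -0.56 ± 0.17 (adjusted p = 0.0634).

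Ndufb3, another single-pass subunit, was the member that passed with metformin alone. It was at 11.29, 11.35, 11.39, 10.89 and 11.22 in filtered air, at 10.46, 10.82, 10.73, 10.77 and 10.82 with metformin, at 11.14, 10.71, 10.94, 11.06 and 10.59 with PM2.5, and at 10.80, 10.48, 10.91, 10.88 and 10.64 in the combined group. All metformin mice lay below all controls. It fell by 0.51 ± 0.14 with metformin (limma adjusted p = 0.045) and by 0.49 ± 0.14 in the combined group (adjusted p = 0.00913).

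Ndufb5, a membrane subunit of this arm, was at 13.17, 13.23, 13.18, 12.66 and 13.04 in filtered air, at 12.80, 12.71, 12.77, 12.36 and 12.71 with metformin, at 13.16, 12.44, 12.86, 12.61 and 12.40 with PM2.5 and at 12.43, 12.41, 12.58, 11.85 and 12.42 in the combined group. It fell by 0.72 ± 0.17 in the combined group against filtered air (limma adjusted p = 0.00208), and combined mouse 4, at 11.85, was its lowest mouse. Ndufb9, of the LYR protein family, was at 16.23, 16.47, 16.37, 16.09 and 16.42 in filtered air, at 16.27, 16.26, 16.16, 16.29 and 16.31 with metformin, at 16.34, 16.30, 16.20, 16.19 and 16.13 with PM2.5 and at 16.07, 15.84, 16.02, 15.36 and 16.02 in the combined group, whose mice lay below all others. In that group it fell by 0.45 ± 0.13 (adjusted p = 0.00975). Its difference was -0.28 (adjusted p = 0.1) without combined mice 2 and 4, the lowest of the group. 

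Ndufb4, a membrane subunit, was at 15.41, 15.40, 15.19, 14.88 and 15.12 in filtered air, at 14.87, 14.82, 14.53, 14.55 and 14.87 with metformin, at 15.28, 14.57, 14.84, 14.64 and 14.50 with PM2.5 and at 14.70, 14.81, 14.74, 14.83 and 14.52 in the combined group. Ndufb4b was at 16.10, 16.13, 16.05, 15.78 and 16.08 in filtered air, at 15.69, 15.69, 15.72, 15.35 and 15.76 with metformin, at 16.22, 15.41, 15.55, 15.60 and 15.24 with PM2.5 and at 15.45, 15.59, 15.55, 15.52 and 15.48 in the combined group. For both, all metformin and all combined mice lay below all controls, while PM2.5 mouse 1 lay among the controls for Ndufb4 and above them for Ndufb4b. In the combined group Ndufb4 fell by 0.48 ± 0.15 and Ndufb4b by 0.51 ± 0.15 (limma adjusted p = 0.0156 and 0.0106). These are near-identical copies whose probes may share RNA, so their separate values are uncertain.

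Ndufb10, a disulfide-bonded subunit on the intermembrane-space side, was at 7.64, 8.00, 7.60, 7.27 and 7.61 in filtered air, at 7.53, 7.24, 7.38, 7.39 and 7.88 with metformin, at 7.88, 7.94, 7.28, 7.63 and 7.66 with PM2.5 and at 7.79, 8.77, 8.35, 8.50 and 7.88 in the combined group. Combined mice 2, 3 and 4 were the high ones. Ndufb10 rose by 0.64 ± 0.19 against filtered air (limma adjusted p = 0.0113). Its mean of 7.76 lay below the 95th percentile of the negative controls. Without combined mice 2 and 4 the difference was 0.39 (adjusted p = 0.154), and with the negative-control covariate 0.37 (adjusted p = 0.325). Ndufb6, Ndufb7, Ndufb8 and Ndufb11 did not pass, with differences between -0.24 and 0.14. Ndufa4, once counted with complex I and now assigned to cytochrome c oxidase, had -0.15 ± 0.12 and did not pass. Its paralog Ndufa4l2, not tested, had group means from 2.85 with metformin to 3.08 in the combined group, below the negative-control median of 4.49.

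**Figure D4:**
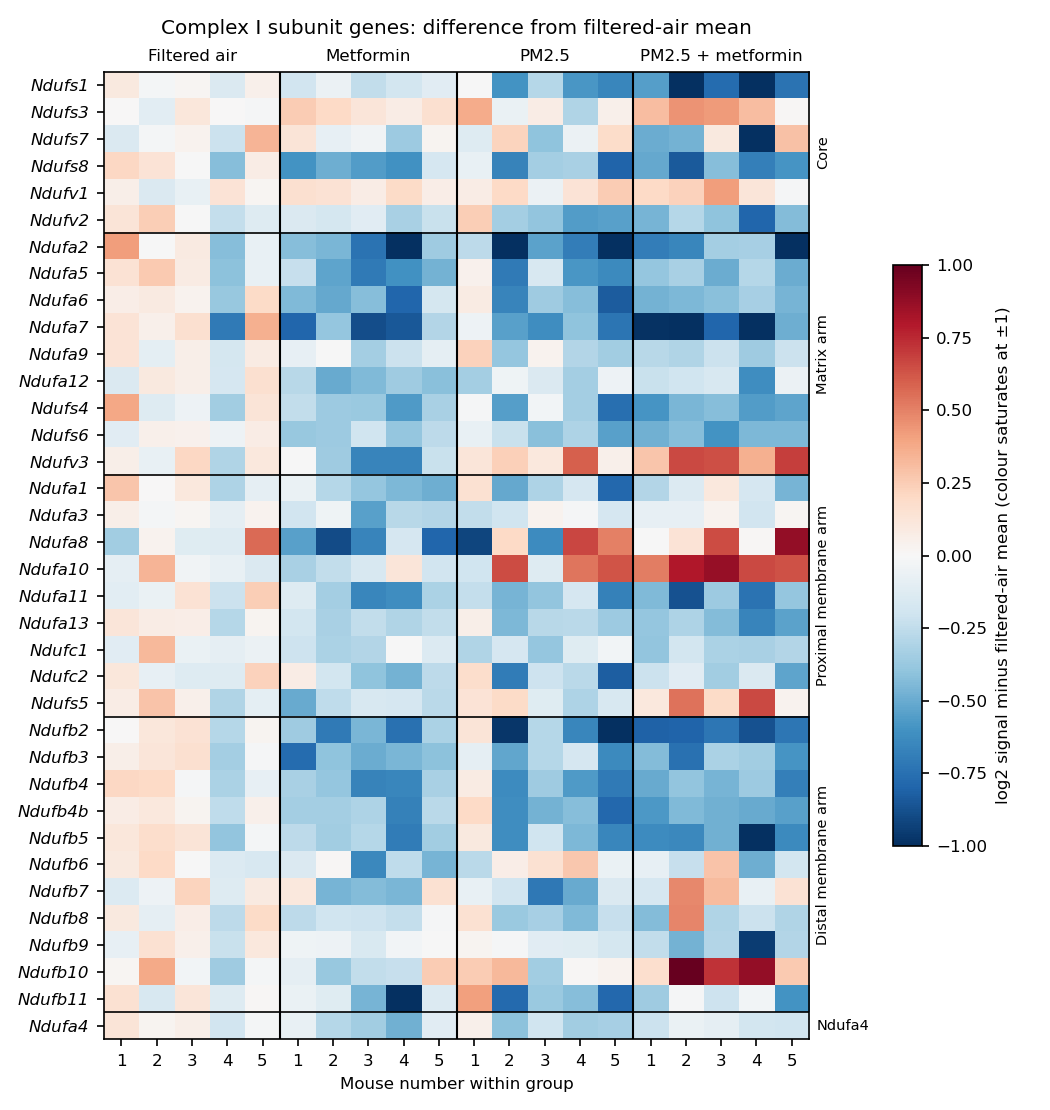
Log2 signal of 36 complex I genes in each of 20 mice minus the gene's filtered-air mean; red is higher, blue is lower, and the colour saturates at a difference of 1 in either direction. Black lines separate the subunit classes. PM2.5 mouse 1 is paler than the other PM2.5 mice, and the Ndufa10 and Ndufv3 cells of the combined mice are red.

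The PM2.5 group against filtered air asks what the particles do without the drug. Here 1 of 36 members passed, Ndufa2, beside 5.17% of all genes, 2.5% lower and 2.67% higher, so the members' share of 2.78% was near the background. Next in adjusted p were Ndufb2 (-0.56, 0.0634), Ndufs1 (-0.43 ± 0.14, 0.0753) and Ndufb4 (-0.44 ± 0.15, 0.0849), by limma. Class medians were -0.18 for the core, -0.34 for matrix arm, -0.20 for proximal and -0.34 for distal accessory subunits. For 0 of 36 members did all PM2.5 mice lie below or above all filtered-air mice, beside 3.39% and 3.55% of all genes. An unadjusted p was under 0.05 for 18 of 36 (50%), beside 22.5% of all genes. Without PM2.5 mouse 1, 10 members fell, beside 6.12% of all genes passing, and without filtered-air mouse 4, 5 fell, beside 6.09%. Without filtered-air mouse 1, 2 or 3, or PM2.5 mouse 2 or 5, 0 passed.

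Metformin against filtered air asks what the drug does without particles. Ndufb3 alone passed among the members, beside 3.15% of all genes, 1.89% lower and 1.26% higher. The groups did not overlap, with all metformin mice lower, for 6 members, or 16.7%, beside 3.57% of all genes: Ndufb3, Ndufa12, Ndufb4, Ndufb4b, Ndufb2 and Ndufs6. No member had all metformin mice higher, beside 3.18% of all genes. Ndufa5 had -0.51 ± 0.15 (limma adjusted p = 0.0753) and Ndufa12 -0.40 ± 0.12 (adjusted p = 0.0769). Class medians were -0.11 for the core, -0.40 for matrix arm, -0.27 for proximal and -0.36 for distal accessory subunits. The unadjusted p was under 0.05 for 20 of 36 members (55.6%), beside 18.6% of all genes. The 1 call was lost in 12 of 20 fits that left out 1 mouse (any metformin mouse, any filtered-air mouse except mouse 4, PM2.5 mouse 3, and combined mouse 1 or 3). Without filtered-air mouse 4, 6 members fell, beside 3.65% of all genes passing, and without PM2.5 mouse 1, 3 fell, beside 3.39%. With the negative-control covariate 0 passed, and all metformin arrays had brighter negative controls than any filtered-air array.

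The combined group against PM2.5 asks what the drug adds under exposure. Ndufs1 fell by 0.44 ± 0.14 and Ndufb10 rose by 0.58 ± 0.19 (limma adjusted p = 0.0428 and 0.0461). That is 2 of 36 members beside 11.7% of all genes, 4.73% lower and 6.95% higher. The members' median was -0.06, and 19 of 36 lay below 0, beside 51.1% of all genes. Ndufb9 had -0.37 ± 0.13 (adjusted p = 0.0645) and was the member for which all combined mice lay below all PM2.5 mice, beside 1.9% of all genes. Neither call was made without combined mice 2 and 4, where the differences were -0.26 and 0.33 (adjusted p = 0.41 and 0.438) and 1.74% of all genes passed. In this comparison 8 of 11 Kupffer cell and macrophage markers and 6 of 10 endothelial markers were lower in the combined group, and their part in the calls was not tested. Leaving out 1 mouse gave 0 to 4 calls: 0 without filtered-air mouse 3, metformin mouse 4, PM2.5 mouse 1, 3 or 4, or combined mouse 2, 3 or 4, and 4 without combined mouse 1 or 5. Without filtered-air mouse 1, 2 or 5, metformin mouse 1, 3 or 5, or PM2.5 mouse 5 there was 1 call.

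The combined group against metformin asks what particles add to the drug. Here 5 members rose (Ndufv3, Ndufa10, Ndufb10, Ndufs5 and Ndufa8) and 2 fell (Ndufs1 and Ndufb9). This is 19.4% of members beside 16.3% of all genes, 13.9% against 9.69% higher and 5.56% against 6.63% lower. The median over the members was 0.01, with 18 of 36 below 0, beside 48.2% of all genes. Ndufb10 rose by 0.78 ± 0.19 (limma adjusted p = 0.00829) and Ndufb9 fell by 0.40 ± 0.13 (adjusted p = 0.0388). The Ndufb9 call was lost without metformin mouse 1, 2, 4 or 5 or combined mouse 2 or 4. All combined mice lay above all metformin mice for Ndufv3, Ndufa10, Ndufs5 and Ndufa8, beside 5.54% of all genes, and below for Ndufs1, Ndufb9 and Ndufs6, beside 3.77%. Without combined mice 2 and 4, 4 of these 7 calls stayed (Ndufv3, Ndufa10, Ndufa8 and Ndufs1), beside 4.21% of all genes passing.

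PM2.5 and metformin, set against each other, differed in 1 member, beside 1.59% of all genes, 0.946% higher and 0.642% lower: Ndufv3 was higher with PM2.5 by 0.60 ± 0.15 (limma adjusted p = 0.0461). Its 5 PM2.5 mice lay above its 5 metformin mice, beside 2.26% of all genes, and no member had the reverse, beside 1.97%. The call was lost in 13 of 20 fits without 1 mouse, with adjusted p up to 0.127 over all alternatives. It held without filtered-air mouse 4, metformin mouse 1, PM2.5 mouse 1 or combined mouse 1, 2, 4 or 5. Ndufa10 had 0.46 ± 0.17 (adjusted p = 0.169) and Ndufa8 0.58 ± 0.27 (adjusted p = 0.298). The median over members was 0.02, and 15 of 36 lay below 0, beside 47.5% of all genes.

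The interaction asks whether metformin's difference under PM2.5 departs from its difference without PM2.5. It passed for 0 of 36 members by limma, beside 0.186% of all genes (0.16% higher, 0.0253% lower), and for 0 under each alternative tried. An unadjusted p was under 0.05 for 11 of 36 (30.6%), beside 13% of all genes. The fitted value was below 0 for 4 of 36 members, beside 49.3% of all genes, and above 0 for 32, with a median of 0.31, beside 0.01 over all genes. A value above 0 means that the combined difference from filtered air lay above the sum of the PM2.5 and metformin differences. Filtered air enters every term. The lowest adjusted p belonged to Ndufv3 (0.68, 95% interval 0.24 to 1.13, adjusted p = 0.164), Ndufs5 (0.63, 0.189) and Ndufb7 (0.68, 0.212). Ndufb7 is a disulfide-bonded subunit like Ndufs5. Ndufa8 had the highest value, 0.98 (adjusted p = 0.264). By class the median was -0.01 for the core and 0.33, 0.35 and 0.30 for matrix arm, proximal and distal accessory subunits, a difference between classes that was not tested.

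Assembly factors build complex I without staying in it, and 17 of the 18 listed were tested. In the combined group against filtered air 8 of 17 fell and 0 rose, beside 16.2% lower and 18.7% higher over all genes, with a median of -0.32. Timmdc1, which helps build the membrane arm, was at 11.44, 11.30, 11.36, 11.27 and 11.40 in filtered air, at 10.83, 11.03, 10.56, 10.76 and 11.10 with metformin, at 10.74, 10.19, 10.72, 10.61 and 10.35 with PM2.5 and at 10.52, 9.74, 10.03, 9.83 and 10.44 in the combined group. Its filtered-air mice lay above all other mice. It fell by 1.24 ± 0.16 in the combined group (limma adjusted p = 1.68e-05), by 0.83 ± 0.16 with PM2.5 (adjusted p = 0.00517) and by 0.75 ± 0.16 in the combined group against metformin (adjusted p = 0.00414).

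Tmem126b, a partner of Timmdc1 in the same assembly complex, fell by 1.01 ± 0.20 in the combined group and by 0.71 ± 0.20 with PM2.5 (limma adjusted p = 0.000696 and 0.0421). Acad9, an acyl-CoA dehydrogenase of that complex, was at 11.47, 11.39, 11.59, 11.06 and 11.50 in filtered air and at 10.83, 9.97, 10.60, 9.86 and 10.98 in the combined group, and it fell by 0.95 ± 0.19 (adjusted p = 0.000595). All combined mice lay below all controls, mice 2 and 4 lowest. Ndufaf1, Ndufaf3, Ndufaf4, Ndufaf8 and Nubpl also fell there, by 0.45 to 0.98. With PM2.5 alone 17 of 17 assembly factors had a difference below 0, beside 47.5% of all genes, with a median of -0.40, and 2 fell, beside 2.5% of all genes. With metformin alone 13 of 17 were below 0, beside 49.7% of all genes, with a median of -0.17, and 0 passed by limma.

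Regulators of nuclear and mitochondrial genes for the respiratory chain were tested for 14 of 16 listed. In the combined group against filtered air 4 rose (Nrf1, Gabpa, Yy1 and Polrmt) and 2 fell (Tfb1m and Mterf1a) of the 14, beside 18.7% higher and 16.2% lower over all genes, with a median of 0.23. Nrf1, the factor named for its sites in respiratory-chain promoters, was at 7.07, 7.38, 7.28, 6.93 and 7.57 in filtered air, at 7.07, 6.87, 6.73, 6.95 and 6.73 with metformin, at 7.14, 6.93, 7.32, 7.43 and 7.23 with PM2.5, and at 8.24, 7.70, 7.78, 8.26 and 7.74 in the combined group. The combined mice lay above all others. It rose by 0.70 ± 0.15 against filtered air and by 0.73 ± 0.15 against PM2.5 (limma adjusted p = 0.00127 and 0.00435).

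Gabpa, the DNA-binding subunit of GABP, rose by 0.83 ± 0.15 in the combined group against filtered air (limma adjusted p = 0.000281). Tfb1m, which modifies mitochondrial ribosomal RNA, fell by 0.69 ± 0.20 (adjusted p = 0.0086). In the combined group against PM2.5, 5 of 14 regulators rose (Nrf1, Gabpa, Twnk, Polrmt and Yy1), beside 6.95% of all genes. Against metformin 4 rose (Nrf1, Polrmt, Twnk and Gabpa) and 2 fell (Tfb1m and Tfb2m), beside 9.69% and 6.63% of all genes.

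Twnk, the mitochondrial DNA helicase, fell with PM2.5 (0.59 ± 0.13 lower in log2, limma adjusted p = 0.0103) and with metformin (0.54 ± 0.13 lower, adjusted p = 0.0223) and had -0.06 ± 0.13 in the combined group. Its interaction of 1.07 ± 0.18 (adjusted p = 0.0159) and that of Nrf1, 1.11 ± 0.21 (adjusted p = 0.03), passed, while no complex I member's did. Twnk and Polrmt, the mitochondrial RNA polymerase, are dim, with means of 5.07 and 5.32 near the negative-control median of 4.49. Nrf1 and Mterf1a, with means of 7.32 and 6.52, also lay below 8.36, the 95th percentile of the negative controls. So did the assembly factors Ndufaf3 and Ndufaf8, at 7.93 and 8.16. The part of the negative-control signal in the values of the regulators and assembly factors was not tested.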

How the data were processed

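Liver RNA of 20 mice was measured on single-channel arrays. Per the submitters' processing notes, Affymetrix Expression Console gave the log2 signal of each probe set as deposited by the authors, with version, summary method and genome build not given in the sources used here. Values ran from 1.55 to 19.03. The array named in the series text is not the type whose identifiers the probe sets carry. Of 28846 probe sets, 6640 were controls (5222 negative), 19572 had 1 gene symbol, 0 several and 2634 none. Genes with several probe sets kept the one with the highest mean. Genes at or below the 40th percentile of non-control probe sets (log2 4.05) were left out, which left 11844.

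Group means were fitted with limma 3.58.1 in R 4.3.3 (lmFit and eBayes, all 20 arrays, residual and prior degrees of freedom 16 and 5.68), two-sided, with Benjamini-Hochberg adjustment over all genes tested. The fit takes 1 variance per gene over the 4 groups, so errors can be too small for a group that varies more. The code was tested on simulated data. Arrays give no read depth, and their number limits the precision. The members follow a symbol rule, their classes and the other gene lists were written from general knowledge, and all were chosen with earlier results of these data known. All members are accounted for. Values per mouse are given for members that passed in any of 7 comparisons or in the F test and for the 2 with the lowest p in each comparison, errors also for the 3 with the lowest p, and from the other lists the genes that passed and the 1 with the lowest p are named. Alternatives were another low-signal filter or none, quantile normalization, median centring, the mean of probe sets, array weights, trend and robust eBayes, the negative-control median as a covariate, the compared groups fitted alone, and leaving out each mouse or combined mice 2 and 4. Promoter motifs were matched by letters on both strands with Python 3.11.15.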

Additional observations from a re-analysis of the deposited data

Results flagged for a closer look

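Each group of 5 mice was checked for a mouse far from the other 4, by Dixon's test at its 95% critical value of 0.710, for the members that passed in a comparison and for the median over members. Of 92 groups 12 stood out, where chance gives about 1 in 20. Filtered-air mouse 4 had a median deviation of -0.233, with the next mouse at 0.03. The same mouse was low for Ndufa13 (log2 14.21), Ndufa6 (13.59) and Ndufb4b (15.78). Filtered-air mouse 2 was high for Ndufa10 (13.44) and Ndufc1 (15.47). Metformin mouse 1 was low for Ndufb3 (10.46), metformin mouse 4 for Ndufb4b (15.35) and Ndufb5 (12.36), and metformin mouse 5 was high for Ndufs8 (14.54). PM2.5 mouse 1 was high for Ndufv2 (14.92), and combined mouse 4 was low for Ndufb5 (11.85).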

How the results depend on the processing

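The 42 differences of complex I members that were recomputed were those that passed or had the 3 lowest p in their comparison. Of these, 0 changed direction under any alternative, but a reversal was unlikely for differences picked by low p in the same data. Other named differences, such as those of assembly factors and regulators, were not recomputed. The median differences of the 36 members moved by less than 1 SD of the mouse medians (0.127). That SD exceeds the medians that lie near 0, and those changed sign when 1 mouse was left out. The median ran from -0.08 to 0.04 for the combined group against PM2.5 and from -0.05 to 0.05 against metformin. For PM2.5 against metformin it ran from -0.05 to 0.08. Counts of members passing by limma were as follows for the alternatives that moved them most, with the share of all genes passing in brackets. For PM2.5 against filtered air (1), they were 2 with a 60th-percentile filter (8.73%), 11 with array weights (11.6%), 2 without combined mice 2 and 4 (7.92%), and 0 to 10 without 1 mouse. For metformin against filtered air (1), they were 0 without a filter (1.61%), with quantile normalization (3.63%), with median centring (2.94%) or with the negative-control covariate (1.24%), 9 with array weights (7.21%), 2 without combined mice 2 and 4 (4.42%), 2 with the groups fitted alone, and 0 to 6 without 1 mouse. For the combined group against PM2.5 (2), they were 1 with median centring (11.1%) and 0 without a filter (5.71%), with array weights (10.5%), with the covariate (0.667%), without combined mice 2 and 4 (1.74%) or with the groups alone, and 0 to 4 without 1 mouse. The combined group against metformin (7) gave 4 without combined mice 2 and 4 (4.21%), 5 with the covariate (8.52%) and 6 to 7 otherwise. Against filtered air (20) it gave 3 with the covariate (8.9%) and 14 without combined mice 2 and 4 (21.5%). With a 60th-percentile filter it gave 22 (47.1%). Counts there were 17 to 22 without 1 mouse and 19 to 23 otherwise. PM2.5 against metformin (1) gave 0 without a filter (0.62%), with quantile normalization (1.97%), median centring (1.28%), trend and robust eBayes (1.44%), the covariate (2.35%) or the groups alone, and 0 to 1 without 1 mouse. The F test (18) gave 3 with the covariate, 8 without combined mice 2 and 4, and 10 to 22 without 1 mouse. For these F test fits the share of all genes passing was not computed. The causes were not tested. Over all genes, the share of calls that were higher moved from 59.6% to 50.2% and 46.1% for PM2.5 against metformin by quantile normalization and centring. No paired analysis was possible because the labels give no replicate numbers. With 5 arrays a group, differences of members whose 95% intervals include 0 cannot be told from 0. Of the tested members 4 lay below the 95th percentile of the negative controls.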

Other observations

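Beside the members named by their calls, 4 subunits with disulfide bonds on the intermembrane-space side (Ndufa8, Ndufs5, Ndufb7 and Ndufb10) were looked at together after their values were seen, so they carry no test as a set. Their differences in the combined group from filtered air were 0.34, 0.31, 0.14 and 0.64, and from metformin 0.95, 0.58, 0.36 and 0.78. Their interaction values were 0.98, 0.63, 0.68 and 0.72, of which 0 passed by limma. Ndufa8 and Ndufa10 were high in PM2.5 mice 2, 4 and 5 and low in mice 1 and 3, while the median over members was high in mouse 1 alone. Ndufab1, the mitochondrial acyl carrier protein and a subunit that the symbol rule leaves out, had 0.07, -0.09 and 0.08 with PM2.5, with metformin and in the combined group against filtered air, and did not pass.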
